A study of Rattus norvegicus with 6 samples.

Results

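Leukocyte adhesion molecules were examined in rat donor hearts after transplantation. The genes were those in a list of 10 (Icam1, Vcam1, Sele, Selp, Selplg, Itgam, Itgb2, Itgal, Itga4 and Pecam1), matched by gene name in the table of read counts. Of the 22250 genes in the table, 9 matched. Pecam1, an adhesion molecule of endothelial junctions, was not analysed here. All 9 passed the filter on low counts and were tested among 13784 genes.

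RNA-Seq libraries were made from left ventricular myocardium of 3 young donor hearts (animals 3, 13 and 15, labelled WT, 10 weeks old) and 3 aged donor hearts (animals 3, 4 and 7, labelled OT, 1 year old). All donors were Sprague-Dawley rats of WT genotype, and all hearts had been transplanted heterotopically and were sampled on postoperative day 1. The study stored the hearts cold and placed them in young rats of the same strain, where the graft beats without its normal load. Transcripts of donor and recipient cells cannot be told apart in these counts, and animals with the same number in different groups are different hearts.

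White blood cells leave the blood in steps. Endothelial cells of inflamed vessels display P-selectin (Selp) and E-selectin (Sele), which catch passing leukocytes by P-selectin glycoprotein ligand 1 (Selplg) and related glycoproteins so that they roll. Leukocyte integrins then bind firmly to immunoglobulin-family ligands. LFA-1 (Itgal with Itgb2) and Mac-1 (Itgam with Itgb2) bind intercellular adhesion molecule 1 (Icam1), and VLA-4 (Itga4 with Itgb1) binds vascular cell adhesion molecule 1 (Vcam1). In the heart these steps bring neutrophils and monocytes into reperfused or transplanted muscle.

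The promoters of the endothelial ligands are known targets of NF-kB, and that of Itgam of the myeloid factor PU.1. RefSeq promoter windows of assembly GRCr8, from 250 bases before to 50 after the gene start, were matched for 5 of the 9 genes (Icam1, Vcam1, Sele, Itgam and Itga4) and searched on both strands for the NF-kB consensus, for the looser form GGNNNTTCC, which overlaps it, and for the PU.1 core GAGGAA. The windows below are shown because they hold such matches, which are in capitals. The Icam1 window, at chr8:27829617-27829646 on the plus strand, starts its match 218 bases before the gene start and reads the looser form on both strands. The Vcam1 window, at chr2:206742857-206742886 on the minus strand, holds the NF-kB consensus 93 bases before the start. The Itgam windows, at chr1:192089429-192089458 and chr1:192089541-192089570 on the plus strand, hold the PU.1 core, on the opposite strand in the second.
Icam1: acttcagtttGGAAATTCCtgggtcgcagg
Vcam1: tccccttgaaGGGATTTCCCtccgcctctc
Itgam, distal: tgtgatgtcccaGAGGAAggctacacaggg
Itgam, proximal: ggctttagtggcTTCCTCaaagtgtttgtg
The NF-kB consensus occurs in 7.51% of all 33469 promoter windows, the looser form in 18.3% and the PU.1 core in 27.6%. The looser form occurs once more in the windows of Icam1 and Vcam1. The windows of Sele and Itga4 held none of the 3 motifs, which says only that these letters are not in those 300 bases. A match is a description of the sequence and not a measured binding site.

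Each heart had between 21457509 and 24560869 reads assigned to genes, and 3 reads, taken as the smallest signal, correspond to 0.0985 to 0.191 CPM. CPM here are library-scaled read counts, with TMM as the scaling. Scaled RPKM are those CPM per kilobase of the gene length in the table and serve to compare levels between genes. Fold changes are aged over young and come from edgeR's quasi-likelihood test. A gene was called past the limits of the study when its fold change was above 1.5 or under 0.67 with an unadjusted p under 0.05. With 3 hearts against 3, an exact permutation test (two-sided) on 1 gene or ratio cannot go below p = 0.1, and the p-values measure only the spread between these hearts.

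A pair of libraries stood apart in a way that touches every result below. Young animal 15 was the highest of the young donor hearts in all 9 genes, and it reached or passed the lowest aged donor heart in 3 of them (Vcam1, Sele and Itga4). Aged animal 3 was the highest of all 6 hearts in 7 of the 9 genes. Its summed CPM of 9 cardiomyocyte markers was 131, against 4276 and 6019 in the other aged donor hearts, 10769 in young animal 15, and 74617 and 83575 in young animals 3 and 13. The fold change of each of the 9 genes is therefore also given without either library. In whole tissue, more cells of a type and more RNA per cell cannot be told apart.

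In aged donor hearts, 3 of the 9 genes were higher and past the limits (Icam1, Selplg and Itgal) and 0 were lower, where 13.2% of all genes tested were past the limits and higher and 19% were past them and lower. For 6 genes (Icam1, Selp, Selplg, Itgam, Itgb2 and Itgal), the lowest aged donor heart exceeded the highest young one. Over all genes tested, 21% did not overlap in that direction and 20.6% in the other. The median log2 fold change of the 9 genes was 1.89, against 0.016 over all genes tested. After Benjamini-Hochberg adjustment over all genes, 0 of the 9 and 0% of all genes had an adjusted p under 0.05 in edgeR, and 3 of the 9 had an unadjusted p under 0.05. Without young animal 15, 7 of the 9 were higher and past the limits and had an adjusted p under 0.05, all but Vcam1 and Sele. In that fit 26.9% of all genes were past the limits and higher, and 48.3% had an adjusted p under 0.05 in either direction.

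**Figure D1:**
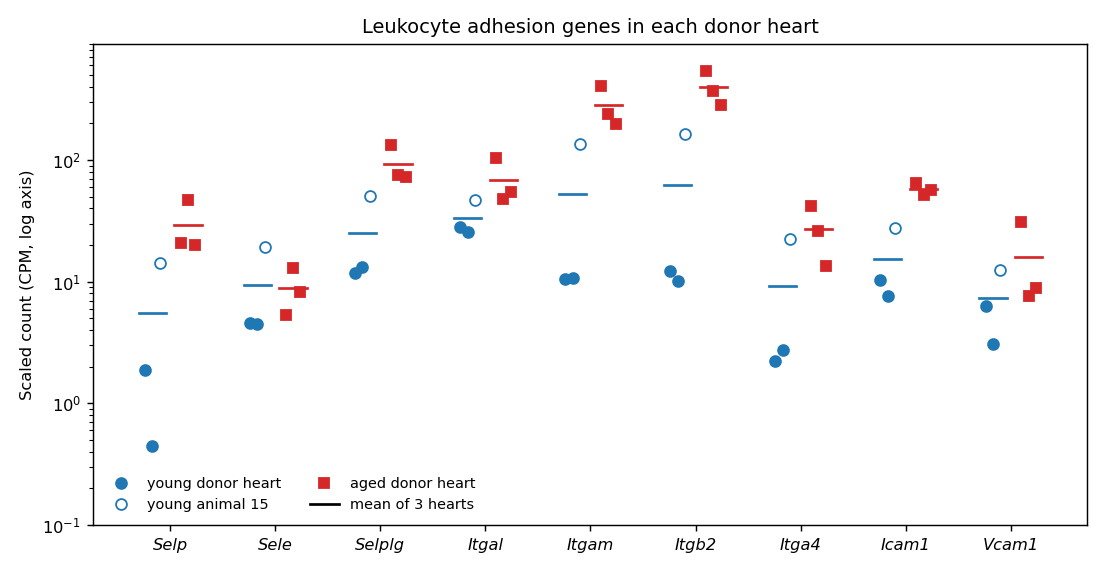
Scaled count in CPM (log axis) of the 9 adhesion genes in each of 3 young (circles) and 3 aged (squares) donor hearts, with horizontal lines at the group means. The open circle is young animal 15, which is the highest young donor heart in every gene and the highest of all 6 hearts in Sele.

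P-selectin, which endothelial cells and platelets keep in granules and bring to their surface within minutes, was at 1.88, 0.445 and 14.1 CPM in young animals 3, 13 and 15. Selp was at 20.7, 47.1 and 20.2 CPM in aged animals 3, 4 and 7. The groups did not overlap, and the lowest value, in young animal 13, rests on 7 reads. For Selp the log2 fold change was 2.40 with a standard error of 1.13 (edgeR unadjusted p = 0.0748, Benjamini-Hochberg adjusted p = 0.178), which did not pass the limits. Without young animal 15 the log2 fold change of Selp was 4.68, and it was past the limits, while without aged animal 3 it was 2.60 and was not.

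E-selectin, which endothelial cells make anew when stimulated by cytokines, had a different pattern. Sele was at 4.6, 4.51 and 19.2 CPM in young animals 3, 13 and 15, and at 5.32, 12.9 and 8.20 CPM in aged animals 3, 4 and 7. Young animal 15 was above every aged donor heart and the other young hearts were below every one of them, so the groups overlapped. The log2 fold change of Sele was -0.11 with a 95% interval from -1.71 to 1.49 (edgeR unadjusted p = 0.877, Benjamini-Hochberg adjusted p = 0.917), so a difference of 2-fold either way is within the interval. The sign turned without young animal 15, where the log2 fold change was 0.98 (unadjusted p 0.0546 from edgeR), and without aged animal 3, where it was 0.16.

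The 2 selectin genes lie on chromosome 13 of the build Rnor_6.0, Sele (ENSRNOG00000002723) from 82355471 to 82365341 and Selp (ENSRNOG00000002794) from 82429063 to 82464628, with 63722 bases between them and the same strand. They were set against each other within each heart, which needs no scaling between libraries. On the log2 CPM scale, Sele minus Selp was 1.26, 3.11 and 0.44 in young animals 3, 13 and 15. It was -1.94, -1.86 and -1.29 in aged animals 3, 4 and 7. Sele was thus above Selp in every young donor heart and below it in every aged one, young animal 15 included. The difference between the groups was -3.30 (exact permutation test, two-sided, p = 0.1, the smallest that 3 hearts against 3 allow). It was between -3.88, without young animal 15, and -2.55, without young animal 13, when hearts were left out in turn.

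Selplg encodes the leukocyte ligand of the selectins. It lies on chromosome 12 from 48577905 to 48579196 in Rnor_6.0. It was at 11.9, 13.2 and 50.2 CPM in young animals 3, 13 and 15, and at 132, 75.7 and 72.1 CPM in aged animals 3, 4 and 7. The groups did not overlap, and aged animal 3 was the highest. The log2 fold change of Selplg was 1.89 with a standard error of 0.63 (edgeR unadjusted p = 0.0221, Benjamini-Hochberg adjusted p = 0.105), a 3.72-fold difference past the limits. It was no longer past them without young animal 3, young animal 13 or aged animal 3, with log2 fold changes of 1.56, 1.59 and 1.56, and it was 2.94 without young animal 15.

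Itgb2 encodes the beta subunit that LFA-1 and Mac-1 share, and it had the largest fold change of the 9 genes. It lies on chromosome 20 from 11777783 to 11815647 in Rnor_6.0. Itgb2 was at 12.3, 10.0 and 165 CPM in young animals 3, 13 and 15, and at 542, 373 and 283 CPM in aged animals 3, 4 and 7. The aged donor hearts were all above the young ones, and young animal 15 lay nearer to aged animal 7 than to the other young hearts. Over the 6 hearts the log2 fold change of Itgb2 was 2.67 with a standard error of 1.14 (edgeR unadjusted p = 0.0551, Benjamini-Hochberg adjusted p = 0.153), which did not pass the limits, and without young animal 15 it was 5.20 and did. It was 2.39 and not past the limits without aged animal 3.

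Itgam, the alpha subunit of Mac-1 on neutrophils and macrophages, was at 10.6, 10.7 and 136 CPM in young animals 3, 13 and 15. Itgam was at 409, 239 and 200 CPM in aged animals 3, 4 and 7. The order of the hearts was close to that of Itgb2, and the groups did not overlap. Aged over young, the log2 fold change of Itgam was 2.43 with a standard error of 1.08 (edgeR unadjusted p = 0.0631, Benjamini-Hochberg adjusted p = 0.163), and it was 4.76 and past the limits without young animal 15, and 2.06 and not past them without aged animal 3. The table places Itgam (ENSRNOG00000019728) on chromosome 1 from 199495298 to 199623960, and the gene Itgax, another partner of Itgb2, lies inside that span on the same strand, from 199555722 to 199576932. Reads of the 2 genes could have been divided between them, so their separate values are uncertain. With their counts summed, a choice made after seeing the data, the log2 fold change was 2.20 (unadjusted p from edgeR 0.0655).

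Itgal, the alpha subunit of LFA-1, which most leukocytes carry, had the smallest fold change among the integrin genes. It lies on chromosome 1 from 198744050 to 198781750 in Rnor_6.0. Itgal was at 28.1, 25.6 and 47.2 CPM in young animals 3, 13 and 15, and at 104, 47.5 and 54.7 CPM in aged animals 3, 4 and 7. The groups did not overlap, but young animal 15 and aged animal 4 were nearly level. The log2 fold change of Itgal was 1.03 with a standard error of 0.39 (edgeR unadjusted p = 0.0356, Benjamini-Hochberg adjusted p = 0.124), a 2.05-fold difference past the limits. It was no longer past them without young animal 3, young animal 13 or aged animal 3, where the log2 fold changes were 0.92, 0.87 and 0.61. Without young animal 15 it was 1.40 and past them.

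Itga4, the alpha subunit of VLA-4 on lymphocytes, monocytes and eosinophils, was at 2.24, 2.73 and 22.6 CPM in young animals 3, 13 and 15. Itga4 was at 41.7, 26.2 and 13.6 CPM in aged animals 3, 4 and 7. Young animal 15 was above aged animal 7, so the groups overlapped. For Itga4 the log2 fold change was 1.56 with a 95% interval from -0.76 to 3.87 (edgeR unadjusted p = 0.153, Benjamini-Hochberg adjusted p = 0.271). Without young animal 15 it was 3.48 and past the limits, and without aged animal 3 it was 1.11 and not past them. The gene lies on chromosome 3 from 66193059 to 66263960 in Rnor_6.0.

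Icam1, the endothelial ligand of both beta 2 integrins, which leukocytes and other cells also make, had the smallest p of the 9 genes. It lies on chromosome 8 from 22035256 to 22047059 in Rnor_6.0. Icam1 was at 10.3, 7.63 and 27.7 CPM in young animals 3, 13 and 15, and at 64.9, 51.7 and 56.3 CPM in aged animals 3, 4 and 7. The aged values were close together, and the lowest of them was above young animal 15. The log2 fold change of Icam1 was 1.91 with a standard error of 0.50 (edgeR unadjusted p = 0.00736, Benjamini-Hochberg adjusted p = 0.0916), a 3.77-fold difference. It stayed past the limits when any 1 of the 6 hearts was left out, with a log2 fold change lowest at 1.59 (young animal 13 left out), 1.83 with aged animal 3 left out, and highest at 2.72 (young animal 15 left out).

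Vcam1, the endothelial ligand of VLA-4, differed from Icam1 in that 1 aged donor heart carried most of its level. It lies on chromosome 2 from 219071193 to 219097619 in Rnor_6.0. Vcam1 was at 6.29, 3.05 and 12.5 CPM in young animals 3, 13 and 15, and at 31.1, 7.58 and 8.85 CPM in aged animals 3, 4 and 7. Aged animals 4 and 7 were below young animal 15. For Vcam1 the log2 fold change was 1.11 with a 95% interval from -0.64 to 2.87 (edgeR unadjusted p = 0.173, Benjamini-Hochberg adjusted p = 0.293). It was 0.17 without aged animal 3 and 1.80 without young animal 15, and it was not past the limits in either fit.

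**Figure D2:**
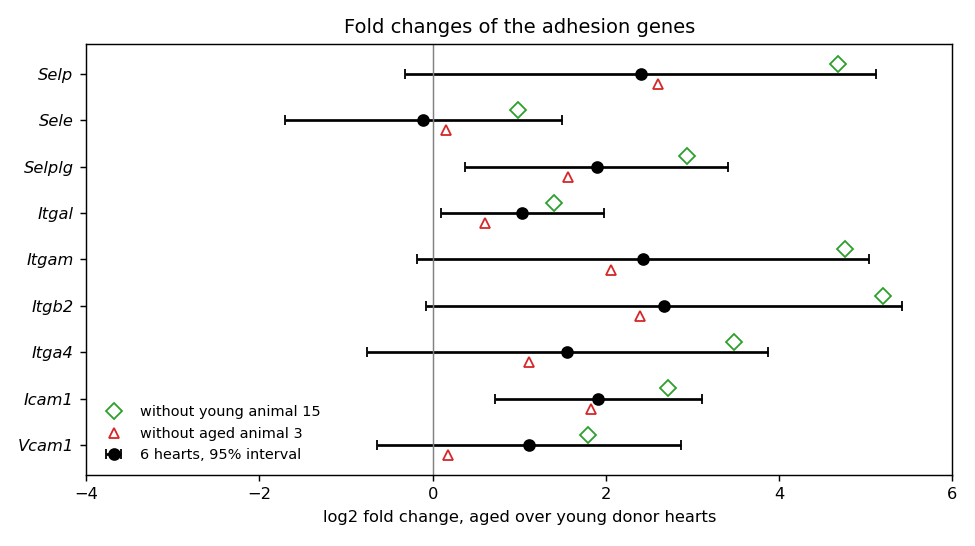
Log2 fold change of the 9 genes, aged over young donor hearts, with 95% intervals from edgeR over 6 hearts (black), without young animal 15 (diamonds) and without aged animal 3 (triangles). The intervals of Selplg, Itgal and Icam1 lie above 0, and every diamond lies to the right of its black point.

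Per length, the order of the genes differed between the groups. In aged donor hearts the median level was highest for Itgb2, at 118 scaled RPKM, followed by Selplg at 59.8, Itgam at 32.1, Icam1 at 21.3, Itgal at 12.1, Itga4 at 8.0, Selp at 6.51, Sele at 2.33 and Vcam1 at 2.21 scaled RPKM. Of these neighbours, Selplg and Itgam, Itgam and Icam1, and Selp and Sele did not overlap in scaled RPKM over the aged donor hearts, and the other neighbours did. The margins around Itgam were narrow, with a lowest Selplg value of 56.9 against a highest Itgam value of 55.0. The lowest Itgam value was 26.9 against a highest Icam1 value of 24.5. The level of Itgam also carries the uncertainty of reads possibly shared with Itgax. In young donor hearts Selplg was highest, with a median of 10.4 scaled RPKM, followed by Itgal at 6.24, Icam1 at 3.91, Itgb2 at 3.90, Vcam1 at 1.57, Itgam at 1.45, Sele at 1.31, Itga4 at 0.836 and Selp at 0.589 scaled RPKM. Only Itgb2 and Vcam1, of the young neighbours, did not overlap. Itgal was above its partner Itgb2 in scaled RPKM in young animals 3 and 13 (6.24 against 3.90, and 5.67 against 3.19), while Itgb2 was above Itgal in the other 4 hearts.

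Markers of blood and vessel cells were measured in the same libraries. The counts below stand beside the 13.2% of all genes tested that were higher and the 19% that were lower past the limits. Of 10 neutrophil markers, 9 were tested and all 9 were higher and past the limits, with summed levels of 16.1 to 136 CPM in young and 348 to 1315 CPM in aged donor hearts. The exception, Mpo, had at most 3 reads in a heart. Of 10 macrophage markers, 9 were tested and 5 were higher and past the limits, with summed levels of 288 to 946 CPM in young and 977 to 2340 CPM in aged donor hearts. Of 10 T cell markers, 8 were tested and 2, Cd2 and Lck, were higher and past the limits, with 31.2 to 87.4 CPM against 112 to 161 CPM in sum. Much of the aged sums was Cd8a, which was not past the limits. Cd8a was at 2.42, 0.89 and 55.8 CPM in young animals 3, 13 and 15, and at 99.0, 88.3 and 63.8 CPM in aged animals 3, 4 and 7. The CD3 chain genes Cd3d, Cd3e and Cd3g had at most 45 reads in a heart, and none was past the limits. Of 10 endothelial markers, 0 were higher and 1, Emcn, was lower and past the limits, with 1450 to 1952 CPM against 1485 to 2081 CPM in sum. Of 8 platelet markers, 4 were tested and 1, Pf4, was higher and past the limits, with 10.7 to 25 CPM against 49.0 to 120 CPM in sum, while Gp1bb was at 0 in every heart and Ppbp had at most 6 reads. Of 9 cardiomyocyte markers found of 10, 4 were lower and past the limits. Of 6 fibroblast markers found of 7, 2 were lower and past them, with 6253 to 7810 CPM against 2020 to 4146 CPM in sum. Of 4 red blood cell markers found of 5, 1 was lower and past them, with 554 to 4385 CPM against 185 to 2407 CPM in sum. The neutrophil, macrophage, T cell and platelet sums were each highest in aged animal 3 and, among young donor hearts, in young animal 15. The integrin genes had the same highest hearts. The part of these cells in the adhesion genes was not tested beyond the ratios that follow.

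In all, 11 ratios were computed, and none could pass p = 0.05 by the exact permutation test. The leukocyte genes were set against Ptprc, the pan-leukocyte gene that encodes CD45, within each heart. Ptprc was at 24.3, 23.5 and 141 CPM in young animals 3, 13 and 15 and at 409, 150 and 202 CPM in aged animals 3, 4 and 7. Relative to Ptprc, Selplg and Itga4 had differences of -0.25 and -0.20 on the log2 scale and groups that overlapped (exact permutation test, two-sided, p = 0.5 and p = 0.8). Itgb2 relative to Ptprc was 1.39 higher on the log2 scale, with values from -1.22 to 0.23 in young and 0.41 to 1.32 in aged donor hearts. Itgam relative to Ptprc was 1.01 higher, from -1.19 to -0.054 in young and -0.016 to 0.67 in aged donor hearts. The 2 groups did not overlap in either ratio (exact permutation test, two-sided, p = 0.1 for each, the smallest possible). When hearts were left out in turn, the difference ran from 1.10 (without aged animal 4) to 1.83 (without young animal 15) for Itgb2, and from 0.78 to 1.38 without the same hearts for Itgam. With Itgb2 in place of Ptprc, the differences were -0.38 for Itgam, -1.64 for Selplg, -1.59 for Itga4 and -2.81 for Itgal. Itgb2 is itself among the adhesion genes and was 1.39 higher relative to Ptprc, so each of these differences is lower by that amount. They are thus no separate check, and the ratios depend on the reference chosen.

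Against Ptprc, Itgal went the other way from Itgb2 and Itgam. Relative to Ptprc, Itgal was at 0.21, 0.12 and -1.58 on the log2 scale in young animals 3, 13 and 15, and at -1.97, -1.65 and -1.88 in aged animals 3, 4 and 7. The difference was -1.42 (exact permutation test, two-sided, p = 0.1), with young animal 15 beside the aged donor hearts, and it was -2.0 without that heart and -1.10 without young animal 3. Itgam relative to Itgal therefore separated the alpha subunits of Mac-1 and LFA-1. This log2 ratio was -1.40, -1.24 and 1.53 in young animals 3, 13 and 15, and 1.97, 2.33 and 1.87 in aged animals 3, 4 and 7. Itgal was above Itgam in counts in young animals 3 and 13, and Itgam was above Itgal in the other 4 hearts. The difference between the groups was 2.43 on the log2 scale (exact permutation test, two-sided, p = 0.1), 3.38 without young animal 15 and 1.91 without young animal 3.

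The endothelial genes were set against the mean log2 CPM of the 10 endothelial markers. The mean weights each marker alike, among them Robo4, with 4 to 28 reads per heart, and Emcn, which was lower past the limits. With the endothelial gene Cdh5 as the reference instead, the differences were 2.42 for Icam1, 3.75 for Selp, 1.31 for Vcam1 and 0.44 for Sele. Icam1 relative to that mean was 2.24 higher on the log2 scale in aged donor hearts, from -3.67 to -1.22 in young and -0.64 to -0.26 in aged donor hearts (exact permutation test, two-sided, p = 0.1). Selp relative to the same mean was 3.57 higher, from -7.53 to -2.19 in young and -2.04 to -0.77 in aged donor hearts (exact permutation test, two-sided, p = 0.1). Without young animal 15 these differences were 2.97 for Icam1 and 5.02 for Selp, and without young animal 13, whose Selp rests on 7 reads, they were 1.75 and 2.36. Vcam1 and Sele overlapped between the groups on this scale, with differences of 1.14 and 0.27 (exact permutation test, two-sided, p = 0.4 and p = 0.8). Icam1 is also made by leukocytes and Selp by platelets, and their share of these transcripts was not tested.

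**Figure D3:**
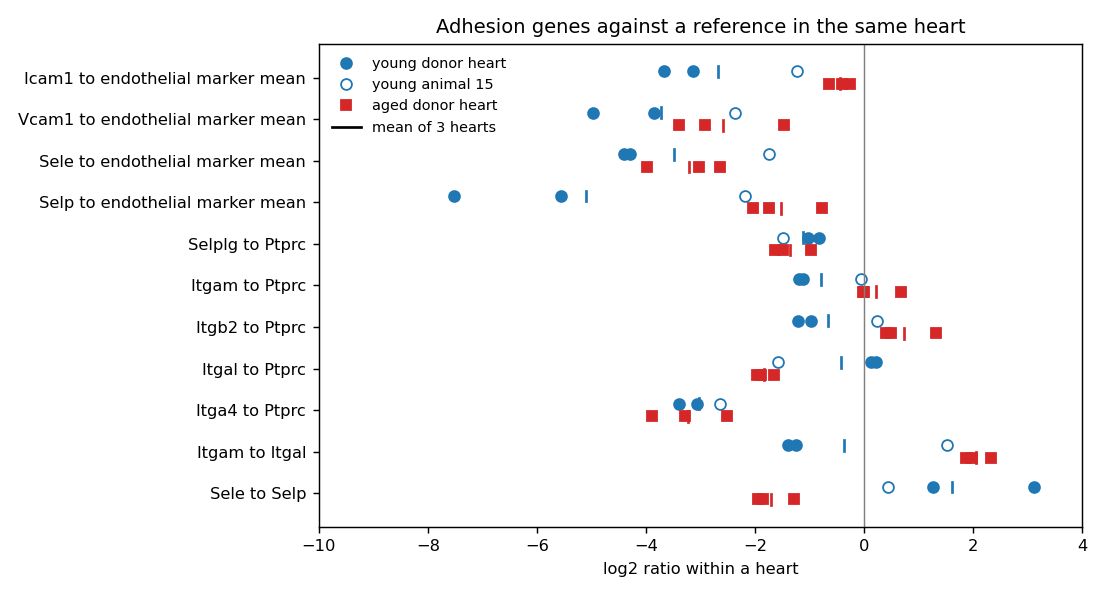
Log2 ratio within each heart of an adhesion gene to a reference (horizontal axis), for young (circles, open for animal 15) and aged (squares) donor hearts, with short vertical lines at the means. The ratio of Sele to Selp is above 0 in all 3 young and below 0 in all 3 aged donor hearts.

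The rest of the adhesion cascade was described from 57 other genes in 6 lists by role. Of these, 48 were tested, 16 were higher and past the limits and 7 were lower and past them. These counts stand beside the 13.2% of all genes tested that were higher and the 19% that were lower past the limits. The counts of the single lists below stand beside the same shares. The median log2 fold change of the 48 was 0.62. Without young animal 15, 26 were higher and 8 lower, and leaving out young animal 3, young animal 13, aged animal 3 or aged animal 4 left 6, 9, 9 and 10 higher. In those 5 fits the share of all genes that was higher and past the limits was 26.9%, 5.83%, 6.13%, 7.47% and 9.97%.

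Among 13 selectins, ligands and enzymes that build the ligands, 6 were higher and 2 lower past the limits. Fut7, a fucosyltransferase that completes the sugar which selectins recognise, and Spn, the sialomucin CD43 of leukocytes, had log2 fold changes of 1.58 and 1.24. Cd34, a sialomucin of endothelial and progenitor cells, had a log2 fold change of -1.57 and Gcnt1, which branches the sugar chains of Selplg, one of -1.23. For Spn and Gcnt1 the groups overlapped, through young animal 15.

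Among 11 other integrin subunits tested, 2 were higher and 2 lower past the limits, beside 13.2% and 19% of all genes tested. Itgb7, the other beta partner of Itga4, was higher by 3.05 on the log2 scale (standard error 0.99), and Itgb3, the beta subunit of the vitronectin receptor and of the platelet fibrinogen receptor, one of 1.82. Itga9 and Itga1, subunits that pair with Itgb1, had log2 fold changes of -1.41 and -0.69. Itgb1 itself, the partner of Itga4 in VLA-4, differed by 0.49 on the log2 scale (standard error 0.43) and was not past the limits. Itgax differed by 1.67 on the log2 scale (standard error 0.83), with the uncertainty of reads shared with Itgam, and was not past them.

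Of the other immunoglobulin-family ligands, 2 of 4 were tested. Icam5 was higher and past the limits, with a log2 fold change of 1.59 that rests on 3 to 57 reads per heart, and Icam2, which resting endothelium makes, was at -0.30 (standard error 0.36). Among 10 junction and transmigration genes tested, 2 were higher and 3 lower past the limits, beside 13.2% and 19% of all genes tested. Esam and Mcam, adhesion molecules of endothelial and mural cells, had log2 fold changes of 0.79 and 0.64. Aoc3, which encodes vascular adhesion protein 1, was at -2.76 on the log2 scale (standard error 0.50), and the junction molecules Jam2 and Jam3 had -1.33 and -0.87. For Jam3, as for Icam5, the groups overlapped, through young animal 15. Aoc3 was at 101, 78.3 and 28.9 CPM in young animals 3, 13 and 15 and at 13.6, 8.57 and 8.47 CPM in aged animals 3, 4 and 7, so the groups did not overlap. VE-cadherin (Cdh5), the main endothelial junction protein, was at -0.29 (standard error 0.38) and was not past the limits.

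Of 11 genes for the machinery that switches leukocyte integrins on, 4 were higher and 0 lower past the limits. They were Fyb1, Apbb1ip, Rap1b and Rasgrp2, with log2 fold changes of 2.21, 1.65, 1.02 and 0.84. Rap1b is a form of the small GTPase Rap1, and the others are adaptors and regulators around it. Kindlin-3 (Fermt3), which binds the tail of Itgb2, was at 1.97 on the log2 scale (standard error 1.01) without overlap between the groups, and was not past the limits. Of 6 cytokines known to induce endothelial adhesion molecules, only Il1b had enough reads to be tested. Its log2 fold change was 3.84 (standard error 0.84), from 32, 12 and 167 reads in young animals 3, 13 and 15 to 1903, 653 and 1377 reads in aged animals 3, 4 and 7. Tnf, Il1a, Ifng, Il4 and Il13 had fewer than 10 reads in every heart, so a difference in them was not detectable at this depth.

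**Figure D4:**
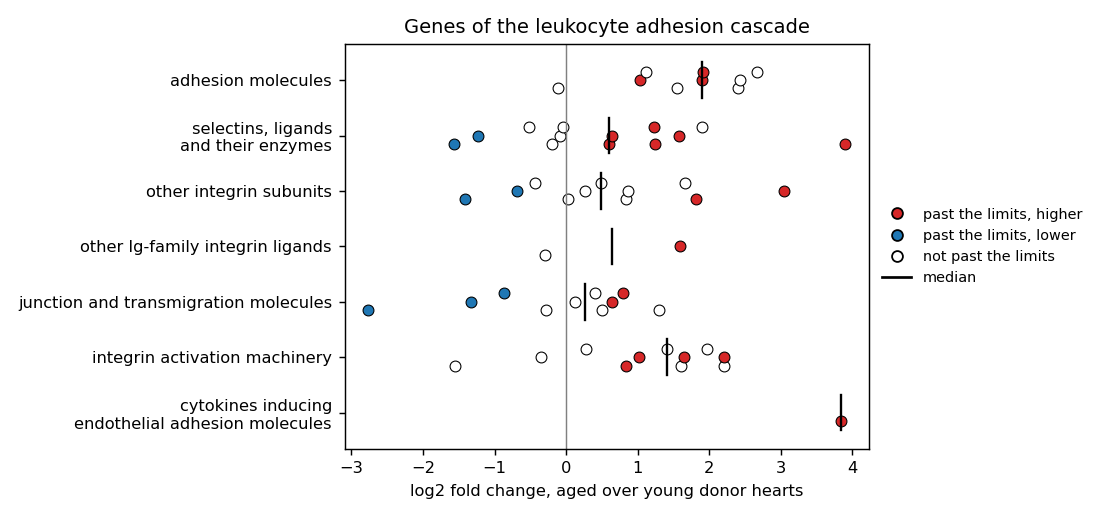
Log2 fold change, aged over young donor hearts, of each tested gene (points) in the 9 adhesion molecules and in 6 lists of other genes of the cascade, coloured by whether it was past the limits, with vertical lines at list medians. The lowest point is Aoc3 at -2.76, and the 1 cytokine tested, Il1b, is at 3.84.

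The genes most like Itgb2 and Sele were found by Pearson's correlation of log2 CPM over the 6 hearts, among 9552 other genes with a mean of at least 10 CPM. All were measured in the same 6 libraries, and 2304 genes reached a correlation of 0.9 with Itgb2. The 3 closest to Itgb2 were Spi1, which encodes PU.1, Myo1g, a myosin of blood cells, and Tmem106a, each at 0.999 or 1.00. Only 103 genes reached 0.9 with Sele, and the 3 closest were Akip1, Hsp90ab1 and Prss23, at 0.988, 0.988 and 0.984. Akip1 was at 8.47, 8.39 and 27.9 CPM in young animals 3, 13 and 15 and at 8.93, 21.8 and 16.3 CPM in aged animals 3, 4 and 7, with young animal 15 again the highest heart.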

How the data were processed

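The authors deposited 1 table with a raw read count and an FPKM value per gene and heart. The counts were deposited unnormalized. FPKM values, which the authors scaled by gene length and library total, entered no test. Per the labels, HISAT2 2.0.5, StringTie 1.3.3b, featureCounts 1.5.0-p3, DESeq2 1.16.1 and GATK 3.7 were named in the submitters' processing notes with the build Rnor_6.0. The use of strand and the treatment of reads shared between genes are not given in the sources used here.

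Tests ran under R 4.3.3. The main tool was edgeR 4.0.16 (filterByExpr, the trimmed mean of M values or TMM, glmQLFit and glmQLFTest, no covariate), with limma 3.58.1 and DESeq2 1.42.0 for alternatives, and in Python 3.11.15 with scipy 1.17.1. Standard errors were taken as the size of the log2 fold change divided by the root of F. Log2 CPM used a prior count of 2. Adjustment was by Benjamini-Hochberg over all genes tested. The edgeR step was tested only on simulated data with a fixed dispersion that was not estimated from these hearts. That test does not show how edgeR performs at the spread between these hearts. All 9 genes found are named, with the up to 3 largest fold changes past the limits per direction and pathway list, and the 3 genes most alike. Itgb1, Itgax, Icam2, Cdh5, Fermt3, Rasgrp2, Emcn, Robo4, Pf4, Cd2, Lck and Cd8a were named after their values were seen. 1 gene that the rule selects is not reported here. The genes and lists were chosen with earlier results of these data known. Ratios to Pecam1 were not analysed here. The labels do not state separate experiments for replicates beyond separate donor hearts.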

Additional observations from a re-analysis of the deposited data

How the results depend on the processing

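Of the 9 genes, 3 were higher and past the limits. This count was 6 with DESeq2's Wald test, where 15.6% of all genes were higher and past the limits, 8 with limma-voom and quality weights, where 26.8% were, 0 with the adjusted p in place of the unadjusted one, and 1 to 7 when hearts were left out in turn (1 without young animal 3, young animal 13 or aged animal 3, and 7 without young animal 15). The number with an adjusted p under 0.05 was 0 in every edgeR fit except that without young animal 15, where it was 7, and it was 4 with DESeq2 and 8 with limma-voom, where 3592 and 8416 of all 13784 genes had one. No gene of the 9 was lower and past the limits under any setting. Among the other cascade genes, 16 were higher in the main fit, 24 with DESeq2's Wald test and 25 with limma-voom. With library totals alone 4 were lower, and leaving out 1 heart gave 6 to 26 higher and 4 to 8 lower. The log2 fold change of Sele turned positive with library totals alone (0.15), with limma-voom (0.87, past the limits, with an unadjusted p of 0.0283 and an adjusted p of 0.0469, against adjusted p-values of 0.0954 to 0.971 under the other alternatives), and without young animal 15 or aged animal 3, and ran from -0.48 to 0.98 when hearts were left out in turn. Itgam differed by -0.38 relative to Itgb2 and by 1.01 relative to Ptprc. Of 108 alternative values of the member fold changes, 86 kept their direction and their side of the limits. Of 85 alternative ratios, 81 moved by less than the spread between hearts. The others were Selplg, Itga4, Itgal and Itgam with Itgb2 in place of Ptprc, and Itgam changed sign. That reference shifts each ratio by the difference of Itgb2 relative to Ptprc. Among the 81, Sele relative to the endothelial mean turned negative without young animal 3 (-0.14), young animal 13 (-0.19) or aged animal 4 (-0.020). Itga4 relative to Ptprc turned positive without aged animal 7 (0.13).

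Over all genes, 1815 were higher and 2621 lower past the limits. Library totals alone gave 3147 and 1441 and moved the median of all genes to 0.46, so the fold changes under that scaling are to be read against it. Limma-voom gave 3689 and 3815, and leaving out 1 heart 817 to 3802 higher and 1615 to 3412 lower, the highest of each without young animal 15. No paired analysis was possible because the groups share only 1 animal number, which counts animals within a group. Depth limits Selp in young animal 13, at 7 reads. The cause of these changes was not tested.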

Other observations

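The deposited table assigns 110 genes to the KEGG pathway of leukocyte transendothelial migration, 6 of the adhesion genes (Icam1, Itga4, Itgal, Itgam, Itgb2 and Vcam1) among them. Of these, 89 were tested, 18 were higher and 10 lower past the limits, and the median log2 fold change was 0.41. In the KEGG pathway of cell adhesion molecules, which holds 8 of the adhesion genes, 110 of 149 genes were tested, 19 were higher and 15 lower, and the median was 0.43. Over all genes tested, 13.2% were higher and 19% lower past the limits. These pathways were chosen after the data were seen.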
